A study of Mus musculus with 12 samples.

Results

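The genes that drive and restrain the cell division cycle were read in 4 fractions of cells sorted from the gastrulating mouse embryo. The set held every gene on the array named as a cyclin of the A, B, D or E type, a cyclin-dependent kinase (CDK), a CDK inhibitor of the Cip/Kip or INK4 family, one of the E2F transcription factors 1 to 8, or a subunit 2 to 7 of the minichromosome maintenance (Mcm) helicase. It comprised 49 of the 27548 genes on the array. The name in the files gave 40 of them, and 9 stood under an older name: Cdk1, Cdk12, Cdk13, Cdk14, Cdk16, Cdk17, Cdk18, Cdk19 and Cdk20.

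All samples came from 1 pool of about 300 CD-1 embryos of 25 litters, taken at embryonic day 7.5. The embryos carried no stated transgene or deletion and had no treatment. Cells were stained with antibodies to Endoglin (Eng), a TGF-beta co-receptor carried by precursors of endothelium and blood, and to Flk1 (gene Kdr), the VEGF receptor that marks mesoderm able to form blood and vessels. The 4 fractions were negative for both proteins (Eng-Flk1-, double-negative), positive for Flk1 alone (Eng-Flk1+, Flk1-only), positive for both (Eng+Flk1+, double-positive) and positive for Endoglin alone (Eng+Flk1-, Endoglin-only), with 3 samples of 3000 cells each and 1 one-colour array a sample. The 3 samples of a fraction are sorts from the same pool, so p-values measure the spread between sorts and amplifications and not between embryos.

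As background, progress through the cell cycle depends on CDKs, which are active only when bound to a cyclin. D cyclins with CDK4 or CDK6 and E cyclins with CDK2 phosphorylate the retinoblastoma (Rb) family, which releases E2F factors to transcribe genes of DNA replication such as the Mcm subunits, and cyclins A and B with CDK2 and CDK1 carry the cell through S phase and mitosis. INK4 proteins block CDK4 and CDK6, and Cip/Kip proteins bind a wider range of cyclin-CDK complexes. Cells of the gastrulating mouse embryo divide very fast.

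Levels are log2 of the signal relative to the 75th percentile of the same array, so that 0 is the level of a gene at that percentile and a step of 1 is a doubling. Levels are compared between arrays for one probe and never between probes. Kdr followed the sort, with a level of 1.11 ± 0.76 in Flk1-only cells and 1.64 ± 0.18 in Eng+Flk1+ against -6.20 ± 1.56 in double-negative cells and -5.38 ± 1.87 in Endoglin-only cells (SD, n = 3). The Eng transcript separated the fractions less: it was -0.49 ± 0.86 in double-negative cells, 0.49 ± 1.02 in Flk1-only cells, 2.10 ± 0.93 in double-positive cells and 0.48 ± 0.55 in Endoglin-only cells, and did not pass the F test over the 4 fractions (limma, adjusted p = 0.263). Between 66.5% and 76.3% of spots were well above background on the Eng-Flk1- arrays and between 80.2% and 83.3% on the other 9. The 3 Eng-Flk1- arrays also differed most from each other, with a median SD over genes of 1.01 against 0.564 to 0.666 in the other fractions. Summed signals of 11 visceral endoderm markers ran from 102 to 316 in double-negative cells and from 4.60 to 13.8 elsewhere, those of 8 epiblast markers from 32.9 to 106 in double-negative cells and from 7.61 to 24.0 elsewhere, those of 10 trophoblast and extraembryonic ectoderm markers from 15.1 to 20.8 in Endoglin-only cells and from 1.90 to 4.28 elsewhere, and those of 10 endothelial markers from 34.9 to 62.3 in double-positive cells and from 2.58 to 15.7 elsewhere, in units of the 75th percentile. In such sorted bulk samples fewer cells with a transcript and less of it per cell cannot be told apart.

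The sequences behind the main results come first. Of the 60-base probes, the first 30 bases are given for the INK4 gene Cdkn2a, which stood out in 1 fraction, and for the 5 probes of the kinase gene Cdk17, which differed among themselves. The Cdkn2a probe lies on the minus strand at chr4:88745872-88745931 and starts at base 701 of its transcript. The Cdk17 probes lie on the plus strand of chromosome 10 (all probe positions are on build mm8, as the scanner files give them, and the exon or UTR at each was not annotated here). A_52_P49945, at chr10:92658506-92658565, is the brightest and represents the gene. A_52_P247603 is at chr10:92661574-92661633, A_52_P197095 at chr10:92670286-92670344, A_52_P60952 at chr10:92695795-92695854, and A_51_P494845 is given the span chr10:92590980-92638010, which is longer than a probe.
Cdkn2a, A_51_P144813: cacttctagcgatgctagcgtgtctagcat
Cdk17, A_52_P49945: ggacttgaaaccacagaacctcctcattaa
Cdk17, A_52_P197095: ccgctgttcatcataagcacatttctctta
Cdk17, A_52_P60952: ctgggatgattcagaccgtagcacatgtca
Cdk17, A_51_P494845: cgcggtccccgcacttgctgaatttttcaa
Cdk17, A_52_P247603: ggcctcttattctgaagttattcacatcac

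Cdkn2a has 2 promoters in RefSeq (GRCm38.p6). As background, its alternative first exons give 2 unrelated proteins, the CDK4 and CDK6 inhibitor Ink4a and the p53 activator Arf, which share the later exons. The 120 bases before each start are shown because 1 probe stood for the gene and its values were not assigned to either start. The first, at chr4:89294620-89294739, and the second, at chr4:89282193-89282312, are on the minus strand, and each is written 5′ to 3′ along the gene.
Cdkn2a, first promoter: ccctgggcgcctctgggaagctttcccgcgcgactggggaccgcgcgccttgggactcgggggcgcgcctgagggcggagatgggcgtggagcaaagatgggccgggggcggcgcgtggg
Cdkn2a, second promoter: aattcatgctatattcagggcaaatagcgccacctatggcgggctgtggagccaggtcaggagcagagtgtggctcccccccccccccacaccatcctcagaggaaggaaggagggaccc

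Promoters of the set were searched for the E2F words TTTCGCGC and TTTGGCGC on both strands, from 250 bases before to 50 bases after each start in RefSeq. Promoters were held for 37 of the 49 genes (45 promoters). A word stood in 6 of the 45 (13.3%), those of Cdk1, E2f2, Mcm3, Mcm5, Mcm6 and Mcm7, and in 267 of the 32851 promoters of all genes (0.813%). It stood in 4 of the 6 Mcm promoters held, and Mcm4 had no entry. The stretches below carry the words in capitals. In Mcm5 and in Mcm6 a word on each strand overlap in a run of 12 bases. The first base of the first word lies 131 bases before the start in Cdk1, 153 in Mcm5 and 110 in Mcm6, and at base 17 after it in Mcm7, 39 in Mcm3 and 40 in E2f2. The positions are chr10:69352980-69353099 (minus strand), chr8:75109300-75109419 (plus), chr1:128359745-128359864 (minus), chr5:138171854-138171973 (minus), chr1:20820263-20820292 (minus) and chr4:136172294-136172323 (plus) on GRCm38.p6.
Cdk1: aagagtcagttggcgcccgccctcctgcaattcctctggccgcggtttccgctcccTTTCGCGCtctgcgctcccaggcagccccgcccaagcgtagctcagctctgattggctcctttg
Mcm5: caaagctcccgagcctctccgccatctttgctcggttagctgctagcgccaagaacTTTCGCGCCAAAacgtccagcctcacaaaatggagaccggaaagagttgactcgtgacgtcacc
Mcm6: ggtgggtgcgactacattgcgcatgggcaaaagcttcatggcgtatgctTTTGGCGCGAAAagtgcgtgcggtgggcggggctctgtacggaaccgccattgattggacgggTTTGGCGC
Mcm7: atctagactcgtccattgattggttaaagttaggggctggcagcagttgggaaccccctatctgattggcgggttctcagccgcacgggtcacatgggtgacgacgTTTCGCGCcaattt
Mcm3: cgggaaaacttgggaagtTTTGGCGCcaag
E2f2: cgaatttggcggcatatagTTTGGCGCtaa
The 6 genes with a word were not alike in their order over the fractions: Cdk1 had its highest mean level in Endoglin-only cells, E2f2, Mcm5 and Mcm7 in Flk1-only cells, and Mcm3 and Mcm6 in double-negative cells. A match of letters is a description and not a site of binding.

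All 49 genes were tested with the 22724 that passed the filter (a signal well above background on each of the 3 arrays of some fraction), and 40 of them (81.6%) were well above background on all 12 arrays, as were 77.4% of all genes tested. The others were Cdkn2a, which passed through 1 fraction alone, Ccnb3, E2f2, E2f4 and E2f8, which passed through 2, and Cdk1, Cdk17, E2f6 and E2f7, which passed through 3. In limma with Benjamini-Hochberg adjustment over all genes, 2 of the 49, Cdk17 (adjusted p = 0.0208) and Cdkn2a (adjusted p = 0.00210), passed the F test over the 4 fractions, where 2.06% of all genes tested passed. In this limma F test 12 of the 49 had an unadjusted p under 0.05, as had 3099 of the 22724 genes tested. Cdkn2a entered the test only through the fraction where it is high, so that its F test sets that fraction against 9 arrays at background, and its call is given as a description of that gene and not as support for the set. With the slide as a block neither passed, and all genes that passed fell from 467 to 32.

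**Figure D1:**
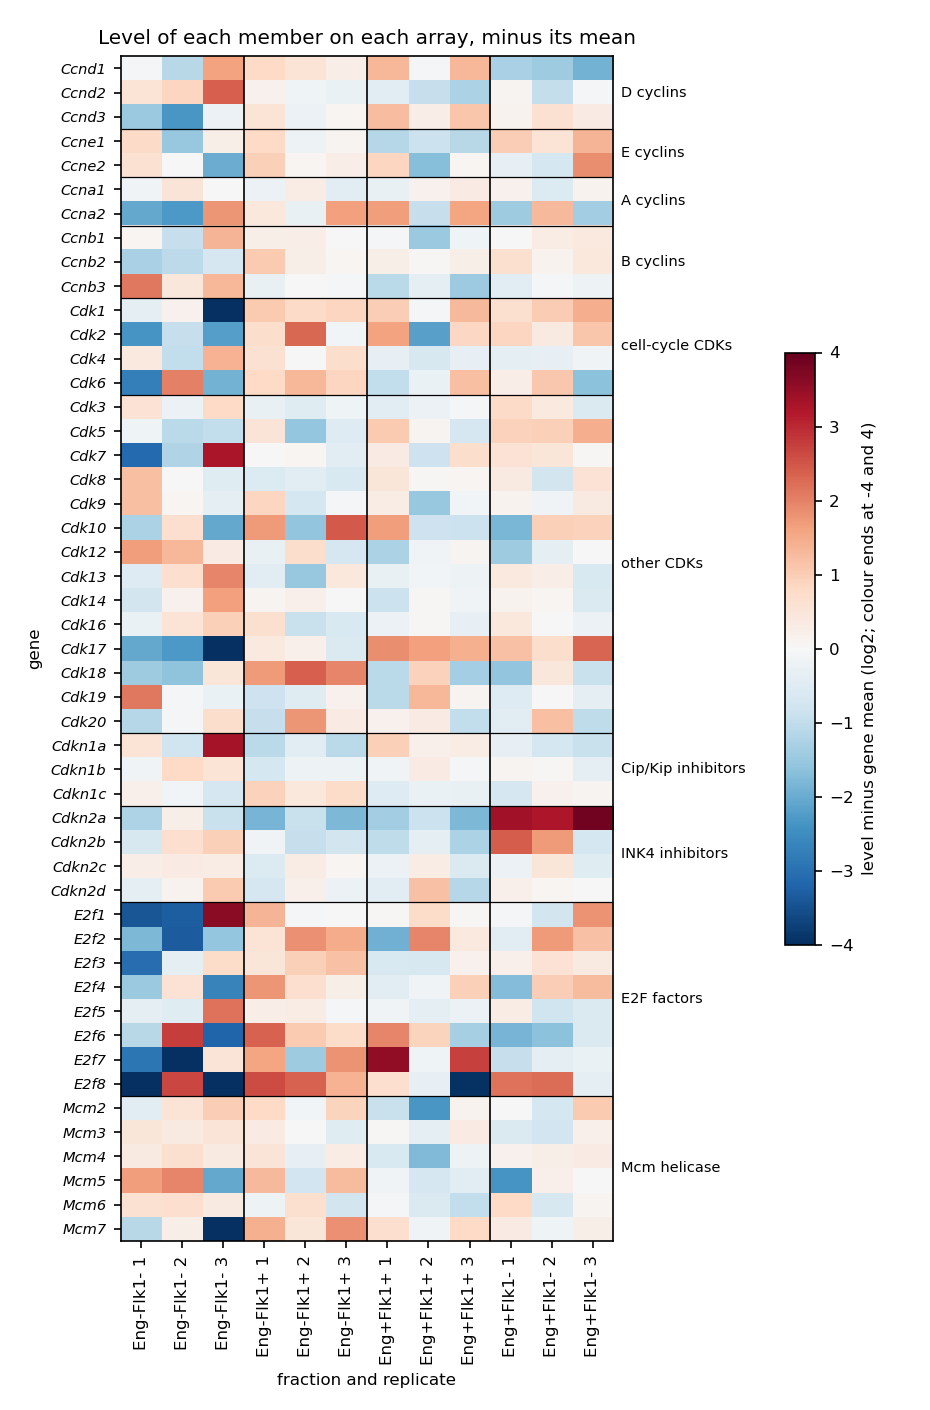
Level of each of the 49 genes on each of the 12 arrays minus the gene's mean over the arrays (log2, colour), with arrays in columns by fraction and genes in rows by role. Cdkn2a was well above background on the 3 Eng+Flk1- arrays alone, Cdk17 was lowest on the 3 Eng-Flk1- arrays, and many rows differ most among the Eng-Flk1- arrays, whose median SD over the set was 1.14.

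Cdkn2a was the clearest difference of the set. It was well above background on the 3 Eng+Flk1- arrays, at -3.02, -3.14 and -2.51, and on none of the other 9, where it lay between -8.24 and -6.15. The groups did not overlap. The probe is printed in 10 spots on each array, and 30 of 30 spots were well above background in Eng+Flk1- against 4 of 90 in the other fractions. As the other fractions were not well above background, only a bound on the size can be given, taking the mean of the bright arrays against the lowest signal well above background on each dim one. Cdkn2a in Endoglin-only cells was at least 9.77-fold higher than in double-positive cells (mean levels -2.89 and -7.73; limma, adjusted p = 0.00458), the only one of the 49 called there, where 0.295% of all genes were called. It was at least 10.2-fold higher than in Flk1-only cells (mean -7.89; adjusted p = 0.00603; 0.101% of all genes called) and at least 6.91-fold higher than in double-negative cells (mean -7.01; adjusted p = 0.00412; 1.46% of all genes called). The gene passed the filter through the high fraction alone, and these p-values rest on values at background on the other side.

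The fraction with Cdkn2a also held the highest signal of the 10 trophoblast and extraembryonic ectoderm markers (all 10 well above background on its 3 arrays, summed signal 15.1 to 20.8 against 1.90 to 4.28 elsewhere), and their part in the result was not tested. The calls were lost with the slide as a block (adjusted p = 0.0977 against Eng+Flk1+, 0.387 against Eng-Flk1+ and 0.817 against Eng-Flk1-) and with normexp background correction (adjusted p = 0.178, 0.136 and 0.366).

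The neighbouring INK4 gene Cdkn2b, whose protein also blocks CDK4 and CDK6, had its highest mean level in the same fraction. Its values there were 0.03, -0.68 and -3.07, against -3.03, -1.70 and -1.43 in double-negative cells, -2.52, -3.30 and -3.13 in Flk1-only cells and -3.42, -2.74 and -3.64 in double-positive cells. Of the Eng+Flk1- arrays, 2 lay above all 9 others and the third lay among them. Cdkn2b did not pass any test, with a difference of -2.02 ± 0.76 (SE) between Eng+Flk1+ and Eng+Flk1- (adjusted p = 0.608). The other INK4 genes varied little: the 4 fraction means of Cdkn2c lay between 1.52 and 1.98 and those of Cdkn2d between 1.76 and 2.26.

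Of the Cip/Kip inhibitors none passed. Cdkn1a, the p53 target p21, was at 0.03, -1.33 and 2.80 in double-negative cells, at -1.60, -0.99 and -1.60 in Flk1-only cells, at 0.44, -0.32 and -0.24 in double-positive cells and at -0.86, -1.21 and -1.41 in Endoglin-only cells. Its 3 Eng+Flk1+ values lay above all 6 of the fractions positive for 1 marker, while the Eng-Flk1- arrays spread over the whole range. The differences were 1.36 ± 0.84 against Eng-Flk1+ (adjusted p = 0.999) and 1.12 ± 0.84 against Eng+Flk1- (adjusted p = 0.999). Cdkn1c, an imprinted inhibitor active in mesoderm and placenta, was at 3.45, 2.94 and 3.27 in Flk1-only cells, above each of the other 9 arrays (1.84 to 2.74). It differed by 1.05 ± 0.41 between Eng-Flk1+ and Eng+Flk1+ (limma, unadjusted p = 0.0270, adjusted p = 0.925). Cdkn1b (p27), an inhibitor kept low in dividing cells, had means from 3.09 in Flk1-only cells to 3.86 in double-negative cells by the probe used. Its other probes had the opposite sign. For Eng-Flk1+ against Eng-Flk1- they gave 0.42 and 0.76, where the probe used gave -0.77. For Eng+Flk1+ against Eng-Flk1- they gave 1.39 and 0.89, where it gave -0.37.

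**Figure D2:**
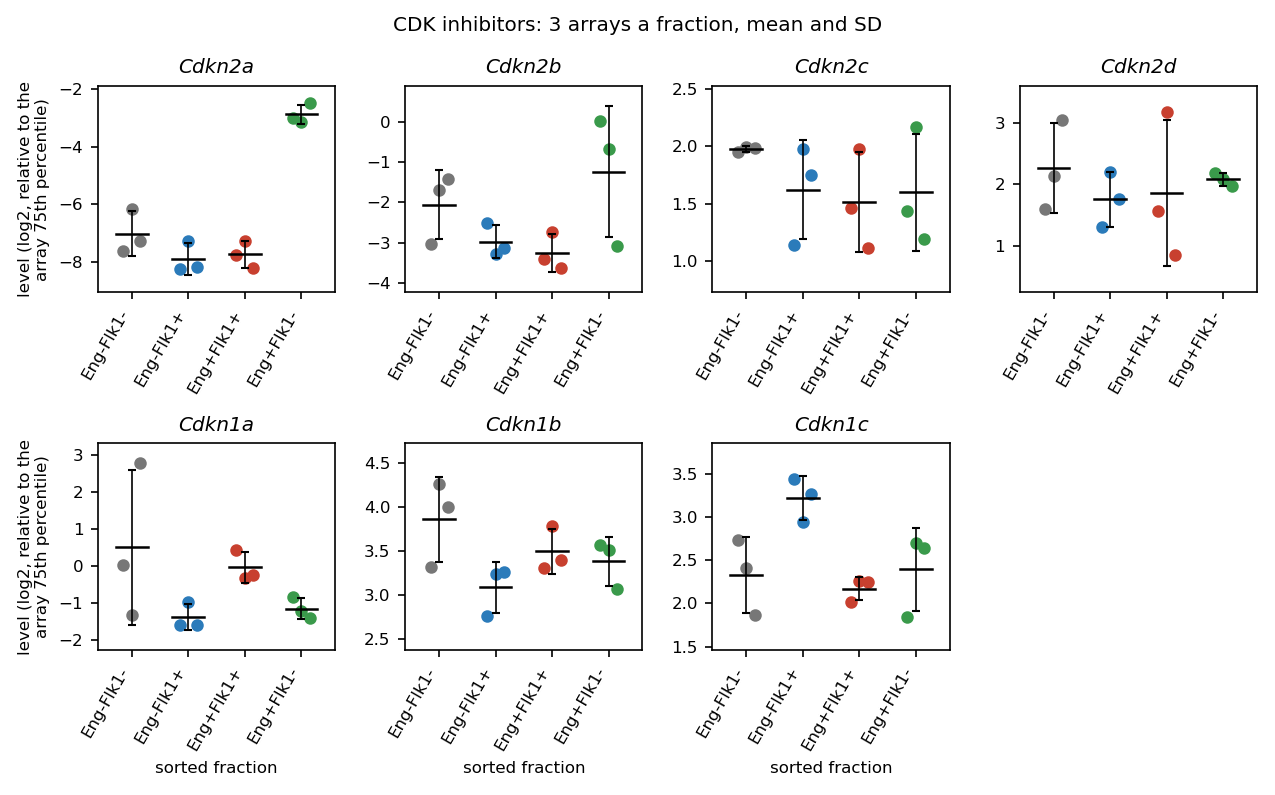
Levels of the 4 INK4 and 3 Cip/Kip inhibitors (log2, relative to the array's 75th percentile; each panel has its own scale) in the 4 fractions, with 1 point an array and the mean with its SD (n = 3). Cdkn2a in Endoglin-only cells (-3.14 to -2.51) is apart from the other 9 arrays (-8.24 to -6.15), and Cdkn1c in Flk1-only cells lies above all other arrays.

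Cdk17, a kinase of the PCTAIRE group that is not one of the classical cell cycle CDKs, was lowest in the double-negative fraction. The probe that represents it read -2.67, -2.91 and -5.49 in double-negative cells, then -0.22, -0.41 and -1.19 in Flk1-only cells, 1.25, 1.01 and 0.80 in double-positive cells and 0.56, 0.09 and 1.72 in Endoglin-only cells. By this probe the Eng-Flk1- arrays lay below all others, and the Eng+ fractions overlapped each other. Cdk17 rose by 4.71 ± 0.74 (SE) from Eng-Flk1- to Eng+Flk1+, a 26.1-fold difference (limma, adjusted p = 0.00912; 2.36% of all genes called), and by 4.48 ± 0.74 from Eng-Flk1- to Eng+Flk1-, a 22.3-fold difference (adjusted p = 0.0169). Of the Eng-Flk1- arrays 2 of 3 were well above background, and without replicate 3, which was not, the differences were 14.0-fold (adjusted p = 0.00703) and 11.9-fold (adjusted p = 0.0123). Against Eng-Flk1+ the difference from Eng-Flk1- was 3.09 ± 0.74 and did not pass (adjusted p = 0.0681). Both calls were lost with the slide as a block, where the differences were 5.40 ± 1.51 (adjusted p = 0.550) and 5.39 ± 1.90 (adjusted p = 0.979). The call in Endoglin-only cells was also lost without Eng+Flk1- replicate 1 (adjusted p = 0.0563) or replicate 3 (adjusted p = 0.0684), and with array weights (a difference of 4.07, adjusted p = 0.0563). The summed signals of visceral endoderm, epiblast, and blood precursor and primitive erythroid markers were highest in the fraction where Cdk17 was lowest. Gene by gene the 10 blood precursor and primitive erythroid markers were split. Against Eng-Flk1-, 4 were higher and 6 lower in Eng+Flk1+, with 1 called each way. In Eng+Flk1- 4 were also higher and 6 lower, with none called. The part of these 3 marker lists in the difference of Cdk17 was not tested.

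The 5 probes of Cdk17 did not give the same picture. For Eng+Flk1+ against Eng-Flk1- all were positive, at 4.71 for the probe used and 3.33, 6.13, 2.02 and 5.61 for A_52_P197095, A_52_P60952, A_51_P494845 and A_52_P247603. For Eng+Flk1- against Eng-Flk1- the probe used gave 4.48 and the same 4 gave 1.07, 1.5, 1.00 and 0.19, so that the call in Endoglin-only cells rests on 1 probe. With the mean of the 5 probes that difference was 1.65 (limma, adjusted p = 0.272). For Eng+Flk1+ against Eng+Flk1- the probe used gave 0.23, and the same 4 gave 2.26, 4.63, 1.02 and 5.42.

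**Figure D3:**
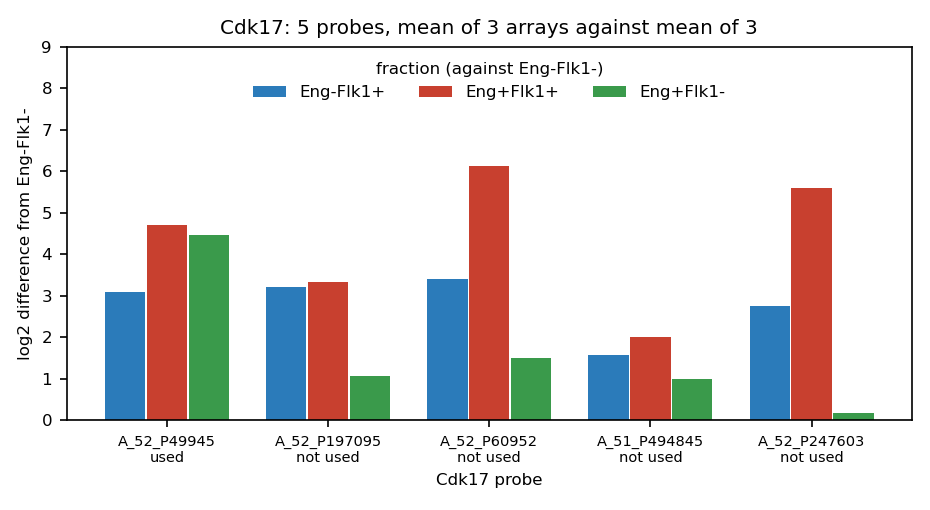
Difference of each fraction's mean level from that of Eng-Flk1- (log2, 3 arrays against 3) for each of the 5 probes of Cdk17. The bars for Eng+Flk1+ run from 2.02 to 6.13 over the probes, and the bar for Eng+Flk1- is 4.48 for the probe used and 0.19 to 1.5 for the other 4.

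Among the other CDKs outside the core cycle, Cdk18, also of the PCTAIRE group, was highest in Flk1-only cells. It was at 0.46, 1.15 and 0.71 there, at -2.65, -2.85 and -0.77 in double-negative cells, at -2.31, -0.31 and -2.59 in double-positive cells and at -2.81, -0.80 and -2.12 in Endoglin-only cells. The Eng-Flk1+ values lay above all 9 others, but no comparison passed, with differences of 2.86 ± 0.78 from Eng-Flk1- (adjusted p = 0.107), -2.51 ± 0.78 for Eng+Flk1+ against it (adjusted p = 0.677) and 2.68 ± 0.78 from Eng+Flk1- (adjusted p = 0.424). Cdk5, a kinase best known from neurons, had means of 1.68 in Endoglin-only cells and -0.16 to 0.73 elsewhere. Cdk12, a kinase of transcript elongation, had means of 1.80 in double-negative cells and 0.09 to 0.61 elsewhere by the probe used. For Eng-Flk1+ against Eng-Flk1- that probe gave -1.20, and the other Cdk12 probes gave 0.67, 0.10, 1.39 and 4.57. The remaining members of this group were Cdk3, Cdk7 (the kinase that activates other CDKs), Cdk8 (of the Mediator complex), Cdk9 (of elongation factor P-TEFb), Cdk10, Cdk13, Cdk14, Cdk16, Cdk19 and Cdk20. None passed a test, and for Eng+Flk1+ against Eng+Flk1- the 14 differences lay between -0.95 and 0.43 by the probe that represents each gene. Other probes lay outside that range, among them 4.4 for Cdk19, 2.50 and -1.58 for Cdk12, and 1.02 to 5.42 for those of Cdk17.

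The CDKs of the core cycle were uneven in the double-negative fraction. Cdk2, partner of cyclins E and A, was at -3.86, -2.41 and -3.71 in double-negative cells, at -0.82, 0.80 and -1.61 in Flk1-only cells, at 0.10, -3.68 and -0.68 in double-positive cells and at -0.65, -1.16 and -0.40 in Endoglin-only cells. Eng-Flk1- lay below both fractions positive for 1 marker and overlapped Eng+Flk1+ through 1 array. Cdk1, the kinase of mitosis, was at 0.19, 0.75 and -7.22 in double-negative cells and between 0.47 and 2.01 on the other 9 arrays, so that the difference of 3.56 ± 1.64 between Eng-Flk1+ and Eng-Flk1- (adjusted p = 0.288) rests largely on 1 array. Means of Cdk4 ran from 3.62 in double-positive cells to 4.49 in Flk1-only cells, and those of Cdk6 from -1.76 in double-negative cells to 0.11 in Flk1-only cells. By the probe that represents each gene, all 4 were higher in Flk1-only cells than in double-negative cells (median 2.32). All 4 were lower in double-positive cells than in Flk1-only cells (median -0.87), with none called. In the same order, another, dimmer probe of Cdk1 gave -0.21 and 0.89, while the other probes of Cdk2 and Cdk6 kept the sign. Without Eng-Flk1- replicate 3 the first median was 1.17, and without Eng+Flk1+ replicate 2 the second was -0.27, with 2 of 4 lower.

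The 3 D cyclins, which bring CDK4 and CDK6 into action in answer to growth signals, each had an order of their own. Ccnd1 was at 3.05, 1.99 and 4.70 in double-negative cells, at 3.89, 3.64 and 3.37 in Flk1-only cells, at 4.42, 3.03 and 4.41 in double-positive cells and at 1.80, 1.68 and 1.22 in Endoglin-only cells. The Eng+Flk1- values lay below all 9 others. Its difference between Eng+Flk1+ and Eng+Flk1- was 2.39 ± 0.66, or 5.24-fold, and did not pass (limma, unadjusted p = 0.00437, adjusted p = 0.278).

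Ccnd2 was at 3.68, 4.0 and 5.54 in double-negative cells, above the other 9 arrays, at 3.32, 2.96 and 2.86 in Flk1-only cells, at 2.73, 2.20 and 1.88 in double-positive cells and at 3.24, 2.19 and 3.04 in Endoglin-only cells. The difference between Eng+Flk1+ and Eng-Flk1- was -2.13 ± 0.54 (adjusted p = 0.0794). For it the other Ccnd2 probes, A_51_P433228 and A_52_P53906, gave -2.18 and 0.03. For Eng-Flk1+ against Eng-Flk1- they gave -1.59 and 1.47, where the probe used gave -1.36. Ccnd3 ran opposite to the Ccnd2 probe used. It was at 0.99, 0.14 and 2.23 in double-negative cells, at 3.00, 2.22 and 2.55 in Flk1-only cells, at 3.69, 2.71 and 3.57 in double-positive cells and at 2.61, 3.06 and 2.79 in Endoglin-only cells, a difference of 2.21 ± 0.55 between Eng+Flk1+ and Eng-Flk1- (adjusted p = 0.0731). None of the 3 D cyclins passed in any comparison in the fit reported here, but some did under alternatives. Ccnd3 was called with quantile normalization (against Eng-Flk1- in both Flk1+ fractions, and in the F test), with an intensity trend and robust estimation (in Eng+Flk1+ against Eng-Flk1-) and without Eng-Flk1- replicate 3 (in both Eng+ fractions). Ccnd2 was called with the trend in Eng+Flk1+ against Eng-Flk1-, and Ccnd1 with array weights in Eng+Flk1+ against Eng+Flk1-.

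The E cyclins start DNA replication with CDK2. Ccne1 was at 3.33, 1.07 and 2.81 in double-negative cells, at 3.37, 2.39 and 2.70 in Flk1-only cells, at 1.44, 1.70 and 1.47 in double-positive cells and at 3.56, 3.13 and 3.94 in Endoglin-only cells. The double-positive arrays lay below all 6 of the fractions positive for 1 marker. The differences were -2.01 ± 0.58 against Eng+Flk1- (adjusted p = 0.308) and -1.28 ± 0.58 against Eng-Flk1+ (adjusted p = 0.999). Ccne2 overlapped in all fractions: it was at 1.11, 0.52 and -1.49 in double-negative cells, at 1.45, 0.58 and 0.78 in Flk1-only cells, at 1.35, -1.20 and 0.56 in double-positive cells and at 0.16, -0.21 and 2.35 in Endoglin-only cells.

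Of the A cyclins, Ccna1, a form known mainly from the germ line, lay between -2.97 and -1.91 on all 12 arrays. Its 3 values were -2.57, -1.91 and -2.41 in double-negative cells, -2.67, -2.14 and -2.90 in Flk1-only cells, -2.72, -2.26 and -2.10 in double-positive cells and -2.26, -2.97 and -2.30 in Endoglin-only cells. Ccna2, the A cyclin of dividing somatic cells, varied as much within fractions as between them: -2.58, -2.81 and 1.26 in double-negative cells, -0.10, -0.81 and 1.11 in Flk1-only cells, 1.16, -1.45 and 1.05 in double-positive cells and -1.94, 0.76 and -1.91 in Endoglin-only cells.

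Among the B cyclins, which act with CDK1 in mitosis, Ccnb2 was lowest in the double-negative fraction. It was at -0.47, -0.20 and 0.17 in double-negative cells and at 1.87, 1.07 and 0.91 in Flk1-only cells, 1.08, 0.87 and 1.08 in double-positive cells and 1.47, 0.96 and 1.26 in Endoglin-only cells. The 3 lowest arrays were thus those of Eng-Flk1-, and the difference of 1.45 ± 0.40 to Eng-Flk1+ did not pass (limma, adjusted p = 0.107). Ccnb3, a B cyclin known mainly from meiosis, was called lower in Eng+Flk1+ than in Eng-Flk1- (limma, adjusted p = 0.0401). Its values were -3.45, -5.12 and -4.24 in double-negative cells, -5.85, -5.55 and -5.60 in Flk1-only cells, -6.65, -5.93 and -7.02 in double-positive cells and -6.03, -5.61 and -5.75 in Endoglin-only cells. No Eng+Flk1+ array was well above background, so that only a bound holds: it was at least 3.70-fold lower there than in double-negative cells (mean levels -6.53 and -4.27). That call lies near the threshold and near the background: it held under 5 of 21 alternatives and was lost with the slide as a block (adjusted p = 0.884), with the replicate number as a block (adjusted p = 0.0888) and when any of 10 of the 12 arrays was left out. Visceral endoderm markers were highest in double-negative cells (10 of 11 well above background on all its arrays, and Afp on none), as were epiblast markers (8 of 8, summed signal 32.9 to 106 against 7.61 to 24.0 elsewhere), and the part of either in this difference and in those of Ccnd2 was not tested. By the probe used, Ccnb1, the main mitotic cyclin, had means of 1.44 in double-positive cells and 2.18 to 2.26 elsewhere, and its double-positive arrays lay below all 6 of the fractions positive for 1 marker. Its other probes, A_52_P202770 and A_51_P287093, kept the sign against those fractions. For Eng+Flk1+ against Eng-Flk1- they gave -0.21 and 0.92, where the probe used gave -0.74.

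**Figure D4:**
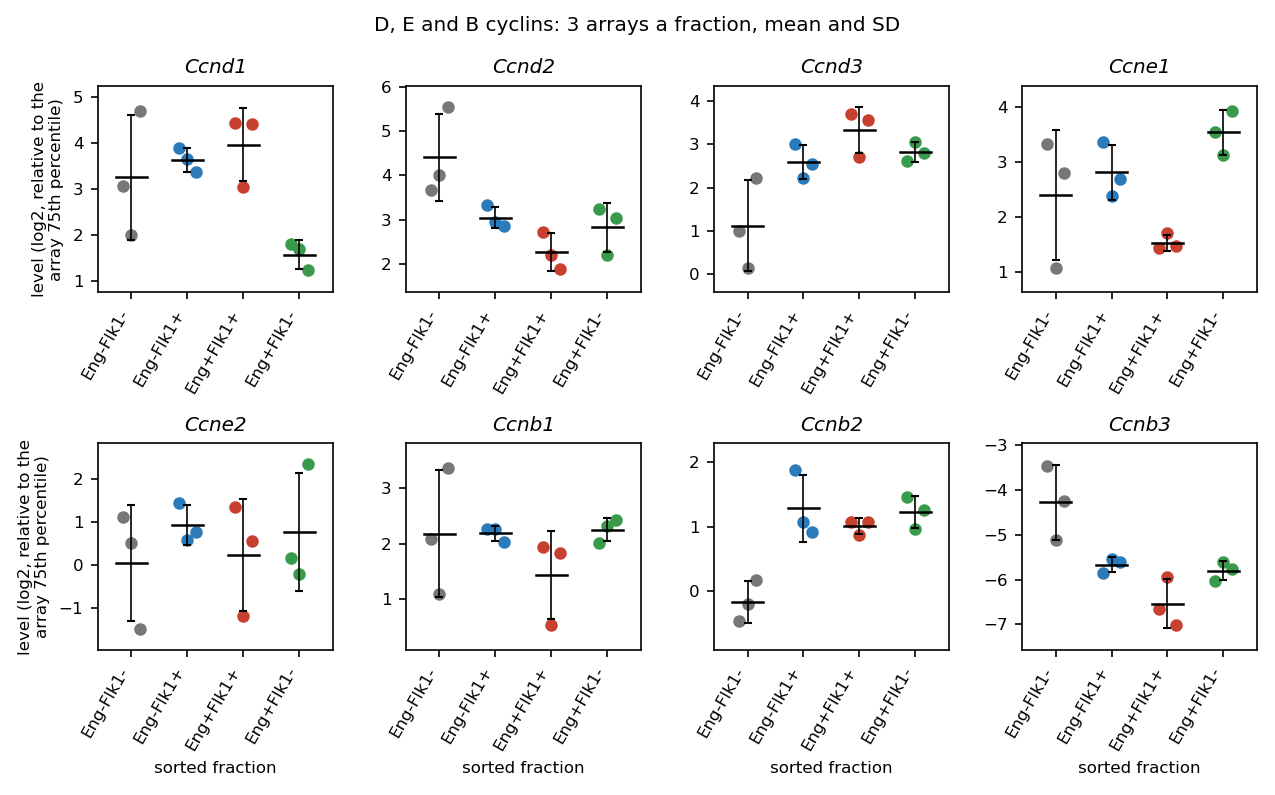
Levels of the D, E and B cyclins (log2, relative to the array's 75th percentile; each panel has its own scale) in the 4 fractions, with 1 point an array and the mean with its SD (n = 3). Ccnd1 is lowest in Endoglin-only cells (1.22 to 1.80), Ccnd2 highest in double-negative cells (3.68 to 5.54), and Ccne1 lies at 1.44 to 1.70 in double-positive cells.

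The E2F factors include activators of replication genes (E2f1, E2f2, E2f3), repressors that act with the Rb family (E2f4, E2f5) and repressors that act without it (E2f6, E2f7, E2f8). E2f2 was at -6.03, -7.56 and -5.77 in double-negative cells, at -3.66, -2.38 and -2.73 in Flk1-only cells, at -6.14, -2.25 and -3.84 in double-positive cells and at -4.69, -2.52 and -3.06 in Endoglin-only cells. It was well above background on none of the Eng-Flk1- arrays, and the other fractions overlapped. E2f2 was at least 6.74-fold higher in Flk1-only than in double-negative cells and did not pass (mean levels -2.92 and -6.45, adjusted p = 0.106). E2f7 was at -5.94, -7.21 and -2.55 in double-negative cells, at -1.50, -4.47 and -1.28 in Flk1-only cells, at 0.49, -3.24 and -0.32 in double-positive cells and at -3.97, -3.41 and -3.33 in Endoglin-only cells, a difference of 4.21 ± 1.32 between Eng+Flk1+ and Eng-Flk1- (adjusted p = 0.155), of which 1 of 3 arrays was well above background. By the probe used, the Eng+Flk1+ arrays of E2f7 lay above all of Eng+Flk1- and overlapped the others. For Eng+Flk1+ against Eng+Flk1- that probe gave 2.55 and the other E2f7 probe, A_52_P607075, gave -0.80. Against Eng-Flk1- the other probe gave 1.51 in Eng+Flk1+.

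As a group, 7 of 8 E2F genes had a higher mean in Flk1-only cells than in double-negative cells (median 1.99), E2f5 being the exception, and all 8 had a higher mean in Flk1-only cells than in Endoglin-only cells (median 0.63), with none called. The latter count was 5 of 8 with the slide as a block, where E2f1, E2f6 and E2f8 turned, and 5 of 8 without Eng+Flk1- replicate 1. The former median was 0.56 with normexp, with 6 of 8 higher. These comparisons share the Eng-Flk1+ arrays. Both counts rest on the probe that represents each gene. In Flk1-only against double-negative cells other probes gave 2.41 for E2f5, -0.41 for E2f8 and -0.95 for E2f6. Those of E2f1, E2f3 and E2f7 kept the sign. In Flk1-only against Endoglin-only cells other probes gave -1.96 for E2f7 and -0.29 for E2f5, and those of E2f1, E2f3, E2f6 and E2f8 kept the sign. Calls appeared when an Eng-Flk1- array was left out: without replicate 3, E2f1 was called higher than in Eng-Flk1- in each other fraction and E2f7 in double-positive cells, and without replicate 2, E2f8 in both fractions positive for 1 marker. Single arrays moved some of the values: E2f1 was at 4.06 on 1 Eng-Flk1- array and at -2.97 and -2.84 on the other two, and E2f8 was at -0.22 on 1 and at -7.93 and -7.33 on the other two. E2f3 had means from 0.13 in double-negative cells to 1.88 in Flk1-only cells, E2f4 from -5.85 to -3.77 and E2f6 from -4.67 in Endoglin-only cells to -1.91 in Flk1-only cells.

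The Mcm subunits, which form the helicase ring that opens DNA at replication origins, did not move as 1 block. Mcm7 was at 0.75, 2.10 and -2.69 in double-negative cells, at 3.28, 2.34 and 3.70 in Flk1-only cells, at 2.53, 1.74 and 2.66 in double-positive cells and at 2.20, 1.71 and 2.10 in Endoglin-only cells. Mcm4 was at 4.72, 5.02 and 4.74 in double-negative cells, at 4.89, 4.03 and 4.68 in Flk1-only cells, at 3.77, 2.61 and 4.17 in double-positive cells and at 4.54, 4.61 and 4.69 in Endoglin-only cells. By the probe that represents each gene, Mcm7 had its lowest mean in the double-negative fraction and Mcm4 its highest. The other, dimmer Mcm4 probe, A_52_P231545, was instead lowest in double-negative cells. From them it differed by 1.82 in Flk1-only, 2.12 in Endoglin-only and 2.54 in double-positive cells. Mcm6, read by 1 probe, had its highest mean in double-negative cells. Mcm7 differed by 3.05 ± 0.99 between Eng-Flk1+ and Eng-Flk1- (limma, adjusted p = 0.164). Mcm4 differed by -1.10 ± 0.46 between Eng+Flk1+ and Eng+Flk1- (limma, adjusted p = 0.713), where its other probe gave 0.42. The means of Mcm2 ran from 0.32 to 1.88, of Mcm3 from 3.18 to 4.02, of Mcm5 from 0.73 to 2.05 and of Mcm6 from -0.02 to 1.06. None of the 6 passed a test, though Mcm7 was called between Eng-Flk1+ and Eng-Flk1- without Eng-Flk1- replicate 2. In double-positive cells 5 of the 6 had a lower mean than in Flk1-only cells (median -0.90, and -0.54 without Eng+Flk1+ replicate 2). That count rests on the probe that represents each gene: the other probes gave 0.72 for Mcm4 and -0.84 for Mcm3.

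Over the set as a whole, limma called no gene in Eng-Flk1+ against Eng-Flk1-, where 1.91% of all genes were called. It called none in Eng+Flk1+ against Eng-Flk1+, where 0.0264% were. In the same order, 12 and 3 of the 49 had an unadjusted limma p under 0.05, as had 4024 and 1087 of the 22724 genes tested. None passed the test of the interaction, that is, whether the difference between Endoglin-positive and Endoglin-negative cells depends on Flk1 (0.273% of all genes called). There, 10 of the 49 had an unadjusted limma p under 0.05, as had 2394 of the 22724 genes tested. Set against Eng-Flk1+, 31 of 49 were lower in the double-positive fraction, with a median of -0.42, while 44.4% of all genes were lower and their median was 0.10. Set against Eng+Flk1-, with the same double-positive arrays, 31 of 49 were also lower, with a median of -0.21, while 50.9% of all genes were lower and their median was -0.01; with the slide as a block 27 of 49 were lower. In 10 members (20.4%) all 3 double-positive arrays lay below all 3 Eng-Flk1+ arrays, as they did in 6.37% of all genes tested: Ccnb1, Ccnb3, Ccnd2, Ccne1, Cdk4, Cdk18, Cdkn1c, E2f3, E2f5 and E2f8. In 4 members they lay above (7.45% of all genes): Cdk8, Cdk17, Cdkn1a and Cdkn1b. In Eng+Flk1+ against Eng+Flk1- the arrays did not overlap in 3 members that were higher (Ccnd1, Cdkn1a and E2f7; 7.82% of all genes) and 5 that were lower (Ccnb1, Ccne1, Cdkn2a, E2f3 and Mcm4; 7.35% of all genes). In Eng-Flk1+ against Eng-Flk1- they did not overlap in 8 that were higher (Ccnb2, Cdk1, Cdk2, Cdk17, Cdk18, Cdkn1c, E2f2 and Mcm7; 9.42% of all genes) and 4 that were lower (Ccnb3, Ccnd2, Cdkn1b and Mcm3; 12.7% of all genes). These counts rest on the probe that represents each gene, and other probes of some genes had the opposite sign, among them E2f7, Mcm4 and Cdkn1b. For the double-positive against the Flk1-only fraction, the median of the set lay between -0.48 and -0.23 over 24 settings, and with the slide as a block was -0.26. Many of these settings could not move it from -0.42. They were those without a filter, with the intensity trend, with the replicate number as a block and without arrays of the remaining fractions. For the comparisons with Eng-Flk1- the sign of the set's median turned with the scaling: for Eng-Flk1+ it was 0.18, and -0.43 with each array scaled to its median, as the authors' deposited table was, a scaling that moved the median of all genes from -0.13 to -0.74 (normexp moved it to -0.35).

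**Figure D5:**
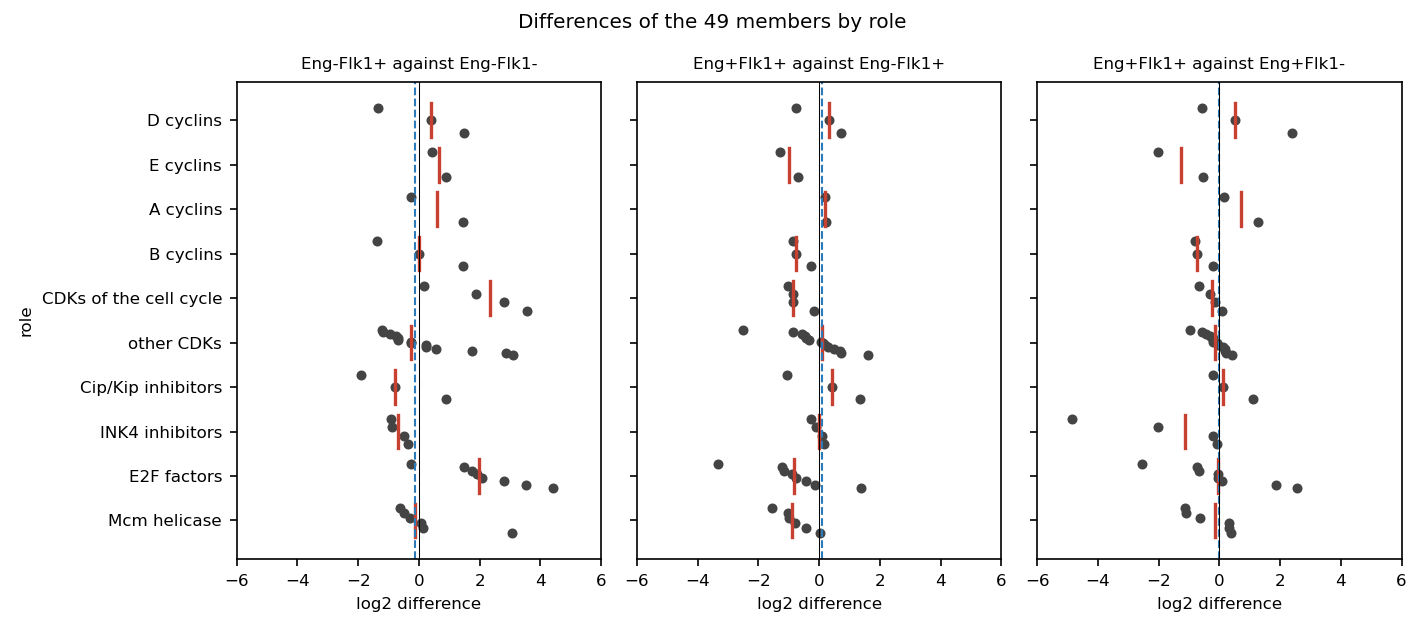
Difference in mean level (log2, x axis) of each of the 49 genes in 3 comparisons, by role (y axis); points are genes, red bars the median of a role and the dashed blue line the median of all 22724 genes tested. In Eng+Flk1+ against Eng-Flk1+ the CDKs of the cell cycle, E2F factors and Mcm subunits have medians of -0.87, -0.82 and -0.90, and the median of all genes is 0.10.

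Genes that act with the set were read from 5 lists. Of 29 genes of origin licensing and the replication fork, which include the origin recognition complex and DNA polymerases, none was called in any comparison. Their median difference from Eng-Flk1- was 1.66 for Eng-Flk1+, 1.34 for Eng+Flk1- and 0.73 for Eng+Flk1+. In the same order these medians were 0.77, 0.98 and 0.30 without Eng-Flk1- replicate 3, 1.05, 0.78 and 0.13 in the authors' deposited table and 0.75, 0.70 and 0.16 with normexp, and the last was 1.51 without Eng-Flk1- replicate 2. Of the list, 24 of 29 were lower in double-positive cells than in Flk1-only cells (median -0.75; 1 at an unadjusted p under 0.05, limma), and 21 of 29 without Eng+Flk1+ replicate 2 (median -0.43). The comparisons with a common fraction are not independent. The genes of this list with the lowest p in the F test were Rpa1, a subunit of the protein that coats single-stranded DNA (means -5.17, -0.95, -2.89 and -1.01 in double-negative, Flk1-only, double-positive and Endoglin-only cells), Tk1, a thymidine kinase (-2.32, 0.91, 0.16 and -0.30), and Pold1, the catalytic subunit of a replicative polymerase (-1.29, 2.68, -0.24 and 1.90).

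Of 23 genes of mitosis and the spindle checkpoint, 1 was called. Bub3, a checkpoint protein at kinetochores, was at 0.01, -3.51 and -3.68 in double-negative cells and between 1.01 and 2.65 on the other 9 arrays. It rose from Eng-Flk1- by 4.40 to Eng-Flk1+ (limma, adjusted p = 0.0326), by 4.5 to Eng+Flk1- (adjusted p = 0.0355) and by 4.14 to Eng+Flk1+ (adjusted p = 0.0377). With the slide as a block the differences were 4.90, 4.86 and 4.76 and none passed (adjusted p = 0.337, 1.00 and 0.804). The other genes of this list with a low p in the F test were Bub1, a checkpoint kinase (-4.19, 0.19, -1.34 and -1.08 in the same order of fractions), and Aurkb, the kinase of the chromosomal passenger complex (-7.26, -3.22, -3.25 and -4.75).

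Of 13 tested genes of growth arrest and the p53 response, 1 passed the F test. Gadd45b, a stress-induced gene of the Gadd45 family, was at 0.42, 1.44 and 1.35 in Endoglin-only cells and between -2.44 and -0.38 on the other 9 arrays (limma, adjusted p = 0.0394 in the F test), so that it was highest in the fraction that held Cdkn2a. No single comparison of it passed, at adjusted p = 0.0584 against Eng-Flk1-, 0.0964 against Eng+Flk1+ and 0.0830 against Eng-Flk1+. Its relative Gadd45g had means of -0.39, 2.56, 2.60 and 0.28, and Ccng2, a cyclin linked to arrest, of -4.31, -0.28, -1.53 and -3.56.

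The last lists had no call in any comparison. Among 21 enzymes that switch CDKs on or off or turn cyclins over, Fbxo5, an inhibitor of the anaphase-promoting complex, had means of 0.75, 3.61, 2.59 and 3.71, Ccnh, the cyclin of CDK7, of -1.26, -0.67, 0.80 and 1.02, and Cdc23, a subunit of the anaphase-promoting complex, of 2.69, 0.94, 1.18 and 1.91. Among 11 tested genes of the Rb family and E2F partners, Foxm1, a factor of mitotic genes, had means of 1.98, 0.07, -1.07 and -1.37, Lin54, a subunit of the DREAM complex, of -6.26, -5.45, -2.68 and -2.34, and Rbl1, the Rb relative p107, of -7.48, -2.79, -4.98 and -6.14. In Eng+Flk1+ against Eng-Flk1+ the medians of these lists were -0.15 and -0.56, that of mitosis was -0.24 and that of growth arrest 0.03.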

How the data were processed

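Agilent one-colour arrays were read from the deposited scanner files, whose background-corrected signal is an intensity (Cy3) that Feature Extraction 10.5.1.1 wrote, per the file headers, together with the deposited flags for well above background, saturation and outliers (unit other). RNA of 3000 sorted cells was amplified by a global PCR protocol before labelling, per the labels' protocols, which can widen the spread of dim genes. The series' design text names GeneSpring GX without settings. The values of the authors' deposited table (a ratio to the array's median signal) matched the scanner signal divided by each array's median.

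Control spots and outliers were left out, spots of a probe averaged, log2 taken and each array's 75th percentile subtracted. The brightest probe stood for a gene, and other probes of some members differed from it in sign. Symbols were updated through RefSeq. A gene entered if well above background on all 3 arrays of a fraction: 22724 genes. limma 3.58.1 (R 4.3.3) fitted 1 model to the 12 arrays with 184 missing values, and p-values were adjusted by Benjamini-Hochberg over all genes tested, with a threshold of 0.05. The slides carried 4 arrays each and are only partly crossed with the fractions, so the slide as a block was an alternative, as were other scalings, filters, weights and leaving out each array. Every Eng-Flk1- array was on slide 1 and every Eng+Flk1- array on slide 3. Eng-Flk1- shared no slide with either Eng+ fraction, and Eng-Flk1+ shared none with Eng+Flk1-. In those comparisons the blocked difference comes only through other arrays, and slide and fraction cannot be told apart directly. The same limma steps were run on simulated data for Eng-Flk1+ against Eng-Flk1- alone, without the filter, blocks, weights, F test or interaction. The number of arrays limits the precision. Values on every array are given for the called members and, in each role, for the 2 with the lowest F test p, and pathway lists name up to 3 genes by the same p; Ccnd1, Cdk5 and Cdk12 and some single values were named after their values were seen. The members and lists were chosen with earlier results of these data known.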

Additional observations from a re-analysis of the deposited data

How the results depend on the processing

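Of the 49 genes, 0 were called in Eng-Flk1+ against Eng-Flk1- with limma, but 2 were with quantile normalization and 1 with the mean over all probes. All genes called there rose from 435 to 663 and 543, in the same order. In Eng+Flk1+ against Eng+Flk1- the count of 1 became 0 with normexp, with only genes well above background on all 12 arrays and with the slide as a block, and 2 with array weights. In Eng+Flk1- against Eng-Flk1- the count of 2 became 3 with quantile normalization (Ccnb3 added), 1 with normexp, the mean over probes and array weights, and 0 with the all-array filter and the slide block. In Eng+Flk1+ against Eng-Flk1- the count of 2 became 3 with quantile normalization (Ccnd3 added) and with an intensity trend (Ccnd2 and Ccnd3 added, Ccnb3 lost), 1 with normexp, no filter and array weights, and 0 with the all-array filter and the slide block. In Eng-Flk1+ against Eng+Flk1- the count of 1 became 0 with normexp, the all-array filter and the slide block. In the F test the count of 2 became 4 with quantile normalization, 1 with normexp and array weights, and 0 with the all-array filter and the slide block. Under the slide block 0 of all genes tested were called in either Eng+ fraction against Eng-Flk1- and in Eng-Flk1+ against Eng+Flk1-. All genes called fell from 67 to 12 in Eng+Flk1+ against Eng+Flk1-, and from 467 to 32 in the F test. The all-array filter removes Cdkn2a, Cdk17 and Ccnb3 from the genes tested; the other causes were not tested. With 1 array left out at a time the counts ran, in the same order, from 0 to 3, 1 to 1, 1 to 4, 1 to 4, 1 to 1 and, in the F test, 2 to 3, and from 0 to 2 for the interaction; leaving out Eng-Flk1- replicate 2 gave 3 in the first comparison and 2 in the interaction, where all genes called rose from 435 to 994 and from 62 to 310, and leaving out Eng-Flk1- replicate 3 gave 4 in each of the comparisons of an Eng+ fraction with Eng-Flk1-, where all genes called rose from 331 to 417 and from 537 to 680. In Eng+Flk1+ against Eng-Flk1+ 0 members were called under every alternative run. No call changed sign.

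With the replicate number as a block, the count in Eng+Flk1+ against Eng-Flk1- was 1 and in the F test 1; the calls of Cdkn2a and Cdk17 in the pairwise comparisons held. Deviations of same-numbered samples correlated between -0.106 and 0.187 over 18 pairs, with 1 over 0.1, so that the numbers are not taken to pair the samples. Dim probes limit Cdkn2a, Ccnb3 and several E2F genes, whose low values lie at the background. The fraction with the highest mean level stayed the same for 40 of 49 genes with quantile normalization, 48 with normexp, 44 in the authors' table and 40 with the mean over probes.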
